A study of Rattus norvegicus with 15 samples.

Results

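The Krüppel-like factors Klf4, Klf6, Klf9 and Klf10 and the early growth response factors Egr1 and Egr2 were followed in rat mesenteric arteries, the vessels that feed the gut. The 6 genes were selected on their log2 signals over the 4 groups described here, so their values are given as a description and without p-values. Every probe set that the platform annotation assigns to one of these symbols was taken, which gave 6 of the 4736 genes with a probe set of their own and 13 of the 8740 probe sets that are not array controls. Of the 13, 11 passed the filter on low signal, as did 6512 of all 8740.

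The rats were of 2 strains, the inbred spontaneously hypertensive rat (SHR) and the Wistar Kyoto rat (WKY), a normotensive strain usually set against it. Collateral arteries came from a surgical model in which neighbouring arteries are occluded, so that the remaining vessel carries added flow, and control arteries are the other vessel type in the labels. The groups held 4 arrays of SHR collateral, 4 of SHR control, 4 of WKY collateral and 3 of WKY control arteries, and the series asks about impaired collateral growth in SHR. No age, sex or time after surgery is used here, and separate animals behind the arrays of a group are not stated, so a p-value here reflects the spread among these arrays, which may be technical. The strains differ at many loci, and no transgene or deletion is named.

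Krüppel-like factors bind GC-rich and CACCC sequences through 3 zinc fingers at the C-terminus, and EGR factors bind a GC-rich site through a similar set of fingers. Egr1 and Egr2 are immediate early genes: serum, growth factors and mechanical strain switch them on within minutes through serum response factor and its partners, which sit on CArG boxes in their promoters. In arteries EGR1 is known as a regulator of growth factor and adhesion genes after injury and flow change, KLF4 as a regulator of smooth muscle and endothelial phenotype, and KLF6 as a factor induced by vascular injury. KLF10 was first described as a TGF-beta inducible early gene, and Klf9 is a known target of glucocorticoid and thyroid hormone receptors.

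The promoters of Klf6 and Egr2 are printed because each holds a CArG box. Each window runs from 250 bases before to 50 bases after the gene start in the RefSeq annotation of GRCr8, and it is written 5′ to 3′ on the gene's strand with the CArG box in capitals. The Klf6 window is chr17:69458429-69458728 on the minus strand, and the Egr2 window is chr20:21054392-21054691 on the minus strand.
Klf6: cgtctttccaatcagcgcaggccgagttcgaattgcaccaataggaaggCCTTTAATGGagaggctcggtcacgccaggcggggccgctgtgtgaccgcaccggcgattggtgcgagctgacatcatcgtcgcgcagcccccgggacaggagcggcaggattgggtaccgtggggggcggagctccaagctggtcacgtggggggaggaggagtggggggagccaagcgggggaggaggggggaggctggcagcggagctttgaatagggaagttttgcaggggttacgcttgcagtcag
Egr2: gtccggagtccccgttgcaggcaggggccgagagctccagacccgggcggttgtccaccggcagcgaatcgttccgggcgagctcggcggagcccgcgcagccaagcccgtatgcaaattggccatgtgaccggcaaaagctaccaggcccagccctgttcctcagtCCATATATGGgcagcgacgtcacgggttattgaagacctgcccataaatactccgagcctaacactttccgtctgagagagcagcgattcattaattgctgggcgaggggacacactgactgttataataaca
The box starts at position -201 in Klf6 and at position -83 in Egr2, counted from the gene start. The Egr1 window, not printed, held 2 CArG boxes, at -105 and -83. None was found in the windows of Klf4 and Klf9, and Klf10 was not among the entries used, so 5 of the 6 genes were matched. Over all 33465 promoters of the same length, 1.64% held a CArG box on either strand. The EGR site GCGNGGGCG was in 4.98% of all promoters and in none of the 5 windows. The GC box GGGCGG, found in 33.1% of all promoters, was in those of Klf6 and Egr2, and the CACCC box CCACCC, found in 29.4%, was in that of Egr1. The half-site of the cyclic AMP response element, TGACG, was in 21.2% of all promoters and in those of Klf9, Egr1 and Egr2, while the whole element TGACGTCA, at 1.83%, was in none of the 5. The TATAAA box, at 14.2%, was in that of Klf4 alone. These matches describe letters in a window and are no measure of binding.

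Of the 15 arrays, SHR collateral 3 was unlike the rest, and the values it moved most are given with and without it. Its Spearman correlation with the others over the tested probe sets was between 0.496 and 0.657, against 0.805 to 0.931 among the others. Signals at its 20th percentile reached 171.2, against 43.4 to 83.3 elsewhere, and 9 spike-in probe sets averaged 354583 on it, against 26654 to 130880. The 3' to 5' ratio of the actin and Gapdh controls, which reports RNA quality, averaged on the log2 scale 1.85 ± 0.17 (SD, n = 4) in SHR collateral, 2.09 ± 0.28 (n = 4) in SHR control, 2.41 ± 0.22 (n = 4) in WKY collateral and 2.26 ± 0.17 (n = 3) in WKY control arteries. The ratio moved with strain, and member values that it moved by over 1.5 times as a covariate are given beside the strain differences, apart from the values near 0 of the Egr1 probe set U75398_s_at. In whole arteries, fewer cells of a type and less RNA per cell cannot be told apart.

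Egr1, an immediate early transcription factor, was measured by 4 probe sets. The probe set M18416_at read 1397, 7668, 1639 and 2572 in SHR collateral, 2193, 11624, 4429 and 4105 in SHR control, 18271, 8808, 9124 and 8167 in WKY collateral and 23976, 17388 and 12386 in WKY control arteries, in units of MAS5 signal and in the order of the replicate numbers. No SHR array reached the lowest WKY array of its own vessel type, although SHR control 2 lay above 3 of the 4 WKY collateral arrays. The log2 difference, SHR minus WKY, was -2.01 ± 0.50 (SE, 4 against 4 arrays) in collateral and -1.90 ± 0.54 (4 against 3) in control arteries, and -1.96 ± 0.37 over both vessel types. Without SHR collateral 3 the collateral difference was -1.79.

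The probe set AF023087_s_at of Egr1 read 32451, 136447, 19438 and 39276 in SHR collateral, 29235, 169090, 80961 and 126461 in SHR control, 113834, 134114, 200985 and 142903 in WKY collateral and 168866, 268853 and 192651 in WKY control arteries. Both SHR groups overlapped with their WKY counterparts, through SHR collateral 2 in collateral arteries and SHR control 2 in control arteries. The log2 difference was -1.75 ± 0.54 in collateral and -1.29 ± 0.58 in control arteries, and the collateral value was -1.37 without SHR collateral 3 and -1.12 with the 3' to 5' ratio as a covariate. At rc_AI176662_s_at the difference was -0.88 ± 0.64 in collateral and -1.12 ± 0.69 in control arteries, or -1.58 in collateral arteries with the covariate, with signals of 335 to 2827 in SHR collateral, 413 to 2613 in SHR control, 1013 to 3359 in WKY collateral and 1412 to 4619 in WKY control arteries.

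The fourth Egr1 probe set, U75398_s_at, did not follow the other 3 in its strain difference. It read 544, 899, 1703 and 412 in SHR collateral, 630, 665, 615 and 951 in SHR control, 688, 627, 1065 and 652 in WKY collateral and 669, 727 and 995 in WKY control arteries. The strain difference was 0.05 ± 0.39 in collateral and -0.16 ± 0.42 in control arteries, and the 4 groups overlapped. Its highest value was that of SHR collateral 3, and without that array the collateral difference was -0.33. Over the 15 arrays, deviations from the group means correlated between M18416_at and rc_AI176662_s_at with Pearson's r = 0.89 and Spearman's rho = 0.70. Between M18416_at and U75398_s_at they had r = -0.06 and rho = 0.03, or 0.22 and 0.27 without SHR collateral 3. Between AF023087_s_at and U75398_s_at r was 0.02 and rho 0.35, or 0.59 and 0.60 without that array. Between rc_AI176662_s_at and U75398_s_at r was 0.23, or 0.26 without it. Which transcript or region each probe set reads was not examined here.

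**Figure D1:**
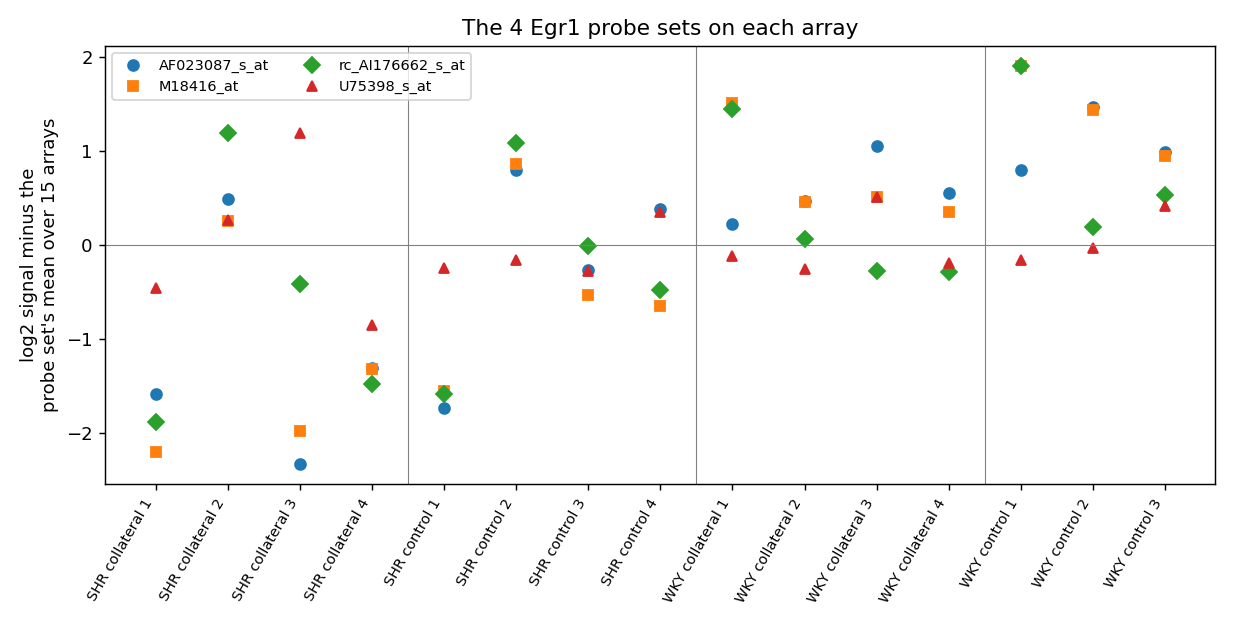
Log2 signal of the 4 Egr1 probe sets on each of the 15 arrays (vertical axis, minus that probe set's mean over all arrays), with the arrays grouped from left to right as SHR collateral, SHR control, WKY collateral and WKY control. Symbols of M18416_at and AF023087_s_at are mostly below 0 on SHR arrays and above 0 on all WKY arrays, while U75398_s_at has its highest point on SHR collateral 3.

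Egr2, a paralogue of Egr1 known for its part in myelination and T cell regulation, was measured by U78102_at. It read 1844, 5082, 2030 and 4661 in SHR collateral, 2981, 6936, 3486 and 3303 in SHR control, 14478, 5559, 5214 and 10461 in WKY collateral and 17792, 14636 and 11807 in WKY control arteries. Within each vessel type the strains did not overlap, and in collateral arteries the gap was narrow, between 5082 on the highest SHR array and 5214 on the lowest WKY array. The log2 difference was -1.41 ± 0.39 in collateral and -1.89 ± 0.42 in control arteries, and -1.65 ± 0.29 over both, which is 3.13-fold lower. Without SHR collateral 3 the collateral difference was -1.21.

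Klf6, a ubiquitous Krüppel-like factor induced by injury, gave the largest strain difference among the 11 probe sets. Its probe set AF001417_s_at read 443, 1909, 1246 and 2175 in SHR collateral, 1218, 1335, 1705 and 1349 in SHR control, 10843, 2726, 6075 and 3831 in WKY collateral and 14734, 6374 and 4696 in WKY control arteries. All 8 SHR arrays lay below all 7 WKY arrays. The log2 difference was -2.06 ± 0.48 in collateral and -2.45 ± 0.52 in control arteries, and -2.26 ± 0.35 over both, which is 4.77-fold lower. The collateral value without SHR collateral 3 was also -2.06, and with the 3' to 5' ratio as a covariate it was -3.10. Counted from the lowest, this difference was number 12 of 6512 in each vessel type and number 7 over both.

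Klf4, which controls smooth muscle phenotype and endothelial quiescence, was read by a pair of probe sets of the same sequence entry. L26292_at read 2455, 4034, 3007 and 5811 in SHR collateral, 1723, 6197, 3258 and 6855 in SHR control, 8730, 3653, 4005 and 4565 in WKY collateral and 13881, 5726 and 4978 in WKY control arteries. The strains overlapped in both vessel types, with differences of -0.44 ± 0.44 in collateral and -0.90 ± 0.47 in control arteries, and the collateral difference was -0.74 with the covariate. L26292_g_at gave -1.24 ± 0.62 in collateral and -0.93 ± 0.67 in control arteries, and its lowest value, 746, was that of SHR collateral 3. Without that array its collateral difference was -0.51. The deviations of the pair from their group means correlated with r = 0.77 over 15 arrays and r = 0.97 without SHR collateral 3.

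Klf10, the TGF-beta inducible factor, passed the filter with rc_AI172476_at only. This probe set read 1471, 753, 508 and 1901 in SHR collateral, 809, 742, 966 and 926 in SHR control, 1179, 3416, 2488 and 2751 in WKY collateral and 1967, 1272 and 2169 in WKY control arteries. SHR control arrays lay within a narrow range, all below the 3 WKY control arrays, and the collateral groups overlapped through WKY collateral 1. The log2 difference was -1.17 ± 0.40 in collateral and -1.04 ± 0.43 in control arteries. Without SHR collateral 3 the collateral value was -0.84, and with the 3' to 5' ratio as a covariate it was -0.59, against -0.87 in control arteries. Over both vessel types the covariate gave -0.73, against -1.10 without it. The other Klf10 probe sets were dim. U88630_at, at 14.1 to 105.9, lay below its array's 20th percentile on 14 of 15 arrays, and rc_AI071299_at, at 16.5 to 223.6, on 6. Both ran the other way, higher in SHR, with overlapping groups. Median signals of U88630_at were 54.5 in SHR against 25.7 in WKY collateral arteries, and 44.8 against 36.7 in control arteries. Those of rc_AI071299_at were 124.9 against 82.3 in collateral and 126.8 against 42.1 in control arteries. The lower Klf10 signal in SHR thus rests on rc_AI172476_at alone.

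Klf9, a factor under hormonal control, was read by D12769_at and D12769_g_at. D12769_at read 2427, 3222, 2409 and 2930 in SHR collateral, 2422, 5902, 4583 and 3598 in SHR control, 4441, 5542, 7966 and 5403 in WKY collateral and 5489, 7321 and 9977 in WKY control arteries. The strains did not overlap in collateral arteries and overlapped in control arteries through SHR control 2. The log2 difference was -1.07 ± 0.29 in collateral and -0.91 ± 0.31 in control arteries, and -0.99 ± 0.21 over both, which is 1.98-fold lower. D12769_g_at gave -1.06 ± 0.36 in collateral and -0.77 ± 0.39 in control arteries, with the collateral value at -0.68 without SHR collateral 3. With the 3' to 5' ratio as a covariate the collateral differences were -0.33 for D12769_at and -0.25 for D12769_g_at, and the difference of D12769_g_at over both vessel types was -0.39, against -0.91 without it. Deviations from the group means of D12769_at and of the 3' to 5' ratio correlated with r = 0.70 and rho = 0.59 over 15 arrays, and with the ratio as a covariate the difference over both vessel types was -0.51. The part of the ratio in this difference was not tested further.

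**Figure D2:**
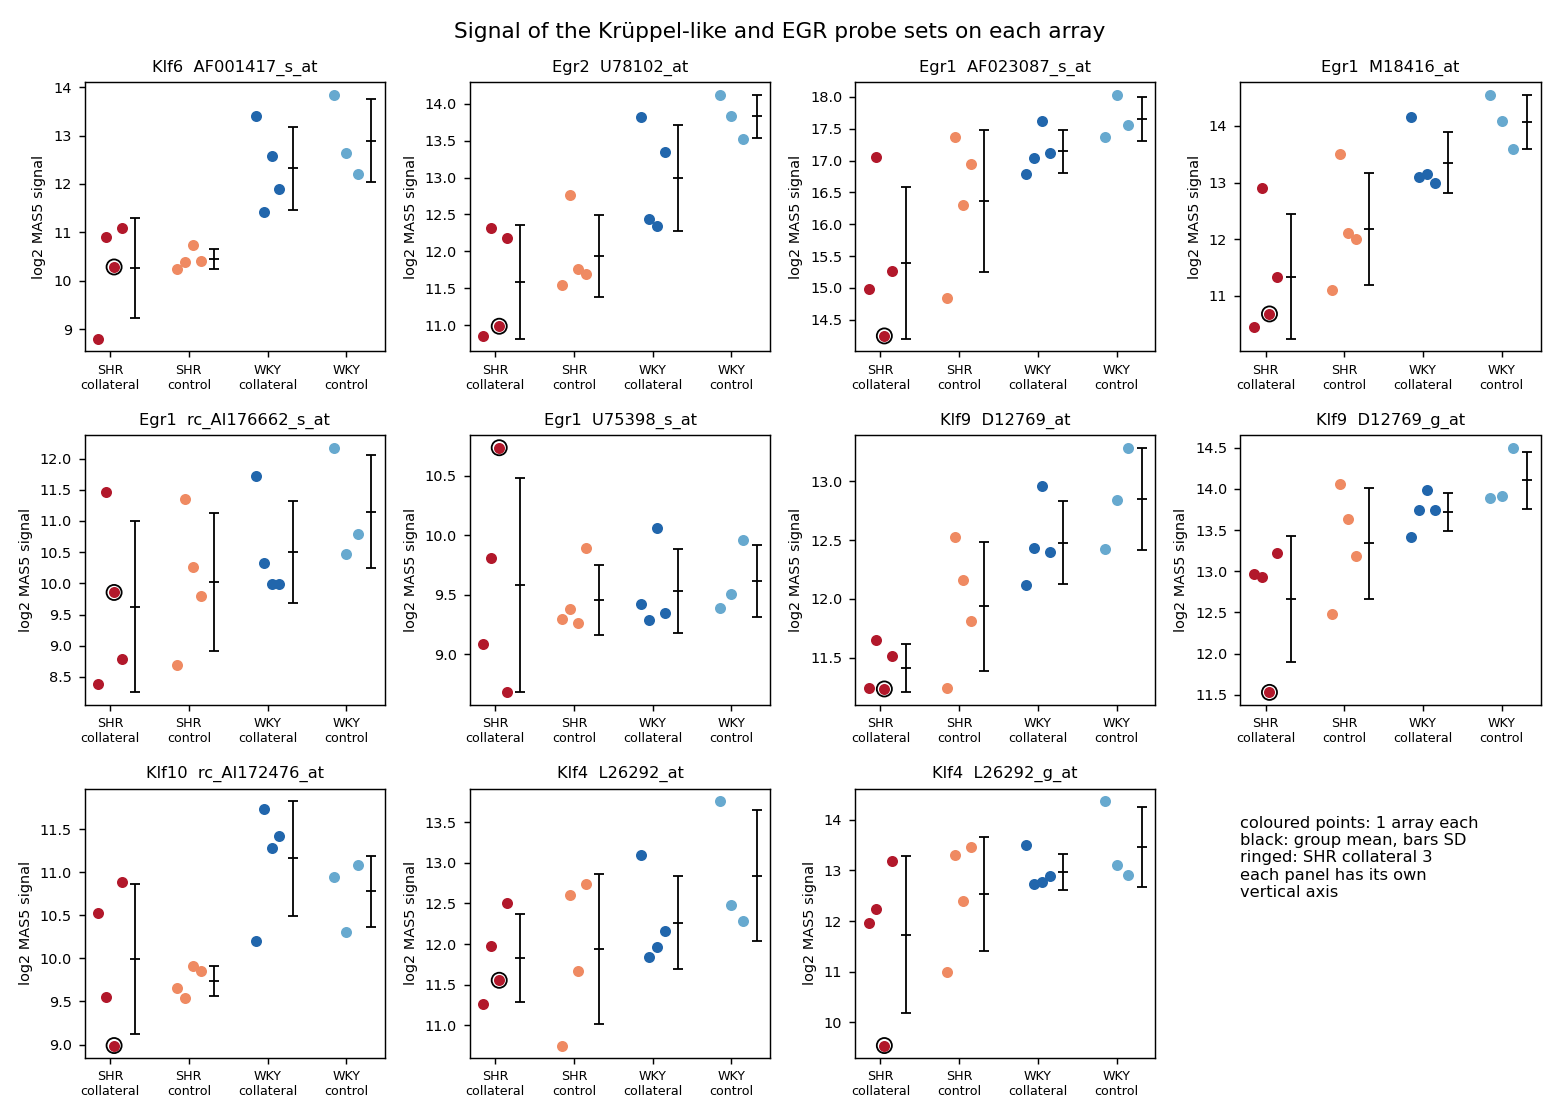
Log2 MAS5 signal (vertical axis, a separate scale in each panel) of the 11 probe sets that passed the filter, with 1 point per array, the group mean and SD in black, and SHR collateral 3 ringed. Groups run from left to right as SHR collateral, SHR control, WKY collateral and WKY control, and the Klf6 panel is the one in which all 8 SHR points lie below all 7 WKY points.

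Over the 11 probe sets, SHR minus WKY was below 0 in 10 in collateral arteries, with a median of -1.17, and in 11 in control arteries, with a median of -1.04. The medians over all 6512 tested probe sets were 0.12 and 0.02. With each array set to the same median, the median of all tested probe sets in collateral arteries shifted by -0.24, and all 11 differences were then below 0. The strains did not overlap, with SHR lower, at 5 of the 11 probe sets in collateral arteries, where 1.55% of all tested probe sets did so, and at 4 in control arteries, where 3.72% did. These counts repeat values that the genes were selected on, and nothing is read from them.

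At an adjusted p of 0.05 in limma, 58 of all tested probe sets (0.891%) differed between the strains over both vessel types, 33 of them lower in SHR (0.507%) and 25 higher. With equal array medians the calls were 10 higher and 21 lower. The 58 included 4 of the 11 probe sets, those of Klf6, Egr2, Egr1 (M18416_at) and Klf9 (D12769_at), but these genes were selected on the same signals and nothing is read from the count. Complete separation of the 8 SHR from the 7 WKY arrays, with SHR lower, was seen at 14 probe sets (0.215%), Klf6 among them. In control arteries alone 2 probe sets (0.0307%) passed, and in collateral arteries 0 (0.0%), although 261 higher and 235 lower had an unadjusted p under 0.05 there. With the 3' to 5' ratio as a covariate, 3 of all probe sets passed over both vessel types.

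**Figure D3:**
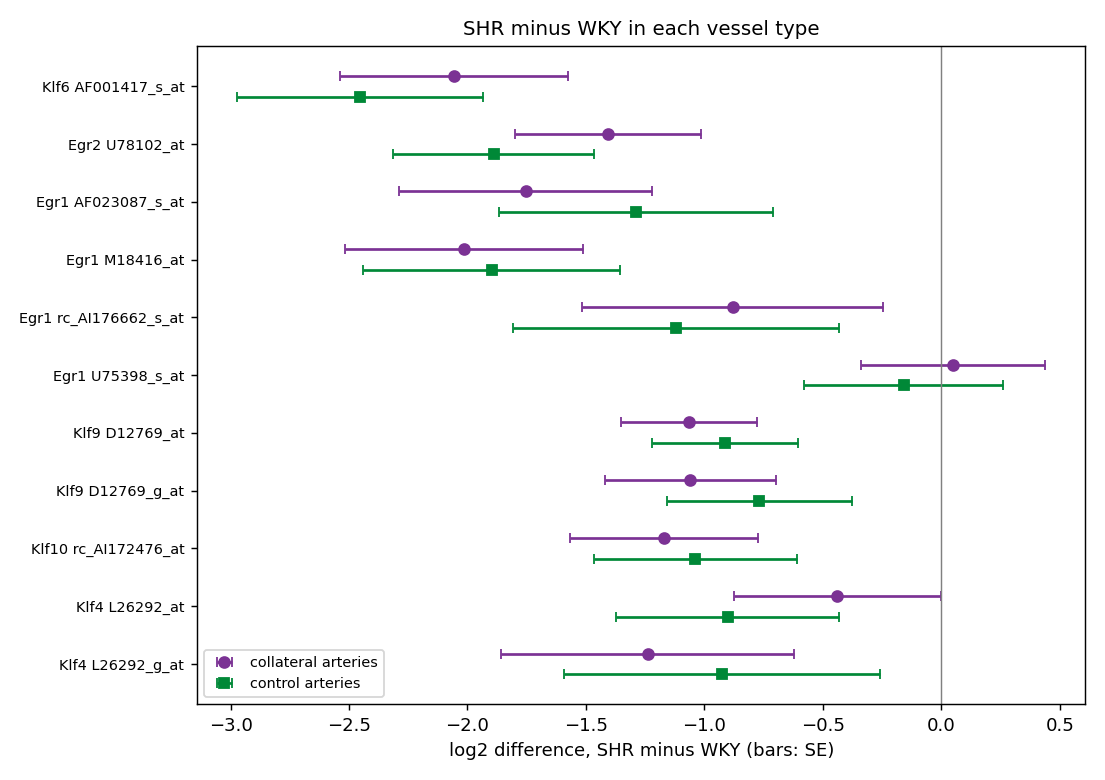
Log2 difference, SHR minus WKY (horizontal axis, bars SE), for the 11 probe sets in collateral (circles) and control arteries (squares). Klf6 lies farthest to the left in both vessel types, and the Egr1 probe set U75398_s_at lies at 0.05 in collateral and -0.16 in control arteries.

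The second comparison asks how the same genes differ between collateral and control arteries within a strain. In SHR the collateral minus control difference was below 0 at 9 of the 11 probe sets, with a median of -0.40, and in WKY at 10, with a median of -0.51, against medians of 0.06 and 0.003 over all tested probe sets. Without SHR collateral 3 the SHR median was -0.26. In SHR the values farthest from 0 were those of the Egr1 probe sets AF023087_s_at and M18416_at, and in WKY that of Egr2. The Egr1 probe set rc_AI176662_s_at was at -0.40 ± 0.64 in SHR and -0.64 ± 0.69 in WKY. U75398_s_at was at 0.12 ± 0.39 in SHR and -0.09 ± 0.42 in WKY. M18416_at was at -0.84 ± 0.50 in SHR and -0.72 ± 0.54 in WKY, and AF023087_s_at was at -0.98 ± 0.54 in SHR and -0.51 ± 0.58 in WKY. Egr2 was at -0.36 ± 0.39 in SHR and at -0.84 ± 0.42 in WKY. Without SHR collateral 3 the SHR values were -0.62 for M18416_at, -0.60 for AF023087_s_at and -0.16 for Egr2, and those of Klf4 (L26292_g_at) and Klf9 (D12769_g_at) were -0.07 and -0.30, against -0.80 and -0.68 with it. The group means of Egr2 on the log2 scale were 11.58 ± 0.77 (SD, n = 4) in SHR collateral, 11.94 ± 0.55 (n = 4) in SHR control, 12.99 ± 0.72 (n = 4) in WKY collateral and 13.83 ± 0.30 (n = 3) in WKY control arteries.

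Klf6 was at -0.18 ± 0.48 in SHR and -0.57 ± 0.52 in WKY, and Klf9 (D12769_at) was at -0.52 ± 0.29 in SHR and -0.37 ± 0.31 in WKY. Klf4 (L26292_at) was at -0.12 ± 0.44 in SHR and -0.58 ± 0.47 in WKY. Klf10 ran the other way, at 0.25 ± 0.40 in SHR and 0.38 ± 0.43 in WKY, although the SHR value was -0.002 under quantile normalization and -0.05 without SHR collateral 4. It was 0.58 without SHR collateral 3. The SHR value of Klf6 was 0.31 without SHR collateral 1, and that of Klf4 (L26292_at) lay above 0 without SHR collateral 1, SHR control 2 or SHR control 4. No collateral group was free of overlap with its control group at any of the 11 probe sets. The share of all tested probe sets without such overlap is not given for this comparison, so nothing is read from this. In limma 0 of 6512 probe sets (0.0%) passed in either strain. An unadjusted p under 0.05 was seen at 135 higher and 110 lower in SHR, and at 114 higher and 92 lower in WKY. In each strain this is fewer than the share of 0.05 that this threshold would pass with no differences, so nothing is read from these counts.

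**Figure D4:**
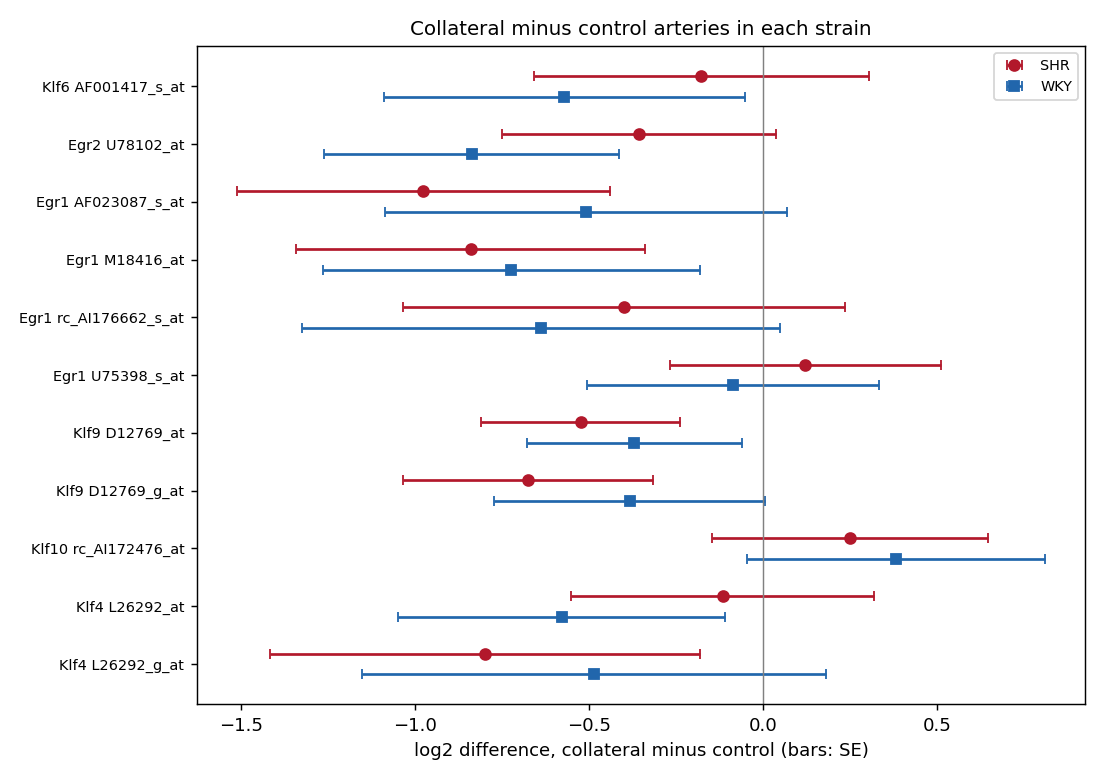
Log2 difference, collateral minus control arteries (horizontal axis, bars SE), for the 11 probe sets in SHR (circles) and WKY (squares). All points other than those of Klf10 and the SHR point of Egr1 U75398_s_at lie left of 0, and no probe set passed in either strain.

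The third comparison is the SHR collateral change minus the WKY collateral change. It lay below 0 at 6 probe sets and above 0 at 5, with a median of -0.12, and without SHR collateral 3 it lay below 0 at 3 with a median of 0.16. Egr2 stood at 0.48 ± 0.58, Klf6 at 0.39 ± 0.71, Egr1 (AF023087_s_at) at -0.47 ± 0.79 and Klf10 at -0.13 ± 0.58. Each was smaller than its own standard error. Leaving out SHR collateral 3 put Egr2 at 0.68, AF023087_s_at at -0.09 and Klf10 at 0.20, so the value of Klf10 changed sign. With the 3' to 5' ratio as a covariate Egr2 was at 0.08, Klf6 at -0.34, AF023087_s_at at -0.02 and Klf10 at 0.28. With array weights Egr2 was at 0.01, Klf6 at -0.32, AF023087_s_at at -0.52 and Klf10 at 0.15. Over all probe sets 0 (0.0%) passed in limma, and 80 higher and 44 lower had an unadjusted p under 0.05. That is fewer than the share of 0.05 that this threshold would pass with no differences, so nothing is read from these counts.

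In the order of their group means on the log2 scale, the levels of Klf6 were 10.26 ± 1.04 (SD, n = 4) in SHR collateral, 10.44 ± 0.21 (n = 4) in SHR control, 12.32 ± 0.86 (n = 4) in WKY collateral and 12.89 ± 0.85 (n = 3) in WKY control arteries. Only the step of 1.88 between SHR control and WKY collateral exceeded the pooled SD of 0.80. For Egr1 (M18416_at) the same step of 1.17 alone exceeded the pooled SD of 0.85, and for Egr1 (AF023087_s_at) only the step of 0.98 from SHR collateral to SHR control exceeded the pooled SD of 0.88. For Klf9 (D12769_at), in that order too, the first and second steps, 0.52 and 0.54, exceeded the pooled SD of 0.40. At the other Klf9 probe set, D12769_g_at, only the step of 0.68 from SHR collateral to SHR control exceeded the pooled SD of 0.57. The order for Egr2 was the same, and its steps of 1.05 from SHR control to WKY collateral and 0.84 from WKY collateral to WKY control both exceeded the pooled SD of 0.63. Klf10 was lowest in SHR control, next lowest in SHR collateral and highest in WKY collateral arteries, and its step of 0.79 between SHR collateral and WKY control alone exceeded the pooled SD of 0.61. At both Klf4 probe sets, and at the Egr1 probe sets rc_AI176662_s_at and U75398_s_at, no neighbouring groups differed by more than the pooled SD. Without SHR collateral 3, SHR collateral minus control was -0.60 for AF023087_s_at and -0.30 for D12769_g_at, smaller in size than the pooled SDs above. For Klf9 (D12769_at) it was -0.46, larger in size than its pooled SD. For Klf10 it was 0.58, against 0.25 with that array, so the step from SHR collateral to WKY control was smaller.

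Within groups the members also varied together to different degrees. Deviations from the group means correlated between Egr1 (M18416_at) and Egr2 with r = 0.81 and rho = 0.81, between Klf6 and Egr2 with r = 0.64 and rho = 0.54, and between Klf6 and Klf4 (L26292_at) with r = 0.66 and rho = 0.76, over 15 arrays. Klf10 had r = -0.32 to Egr1 (M18416_at), or -0.60 without SHR collateral 3, but r = 0.57 to Klf9 (D12769_g_at), or 0.30 without that array. To Klf4 it had r = 0.41 at L26292_g_at and -0.09 at L26292_at, or -0.003 and -0.20 without that array. These points share arrays and their scaling, so the values are a description.

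The genes whose log2 signal over the 15 arrays was most like that of each member were listed by Pearson's r. For Egr2 they were Egr1 (M18416_at, 0.93), the phosphatase gene Dusp1 (0.93) and the nuclear receptor gene Nr4a3 (0.90), and for Klf6 they were Egr2 (0.89), Dusp1 (0.88) and the stress factor gene Atf3 (0.87). For Egr1 (AF023087_s_at) they were Nr4a3 (0.92), Furin (0.90) and Mfge8 (0.89). For Klf9 they were Errfi1 (0.94), Mfge8 (0.93) and the smooth muscle myosin gene Myh11 (0.93), and for Klf4 they were Gucy1b1 (0.93), Pkia (0.92) and Nexn (0.92). Klf10 stood apart, with the lysyl oxidase gene Lox (0.86), Psmc1 (0.82) and Cdk17 (0.80). Without SHR collateral 3 the values for Klf4 were 0.84, 0.85 and 0.82, and those for Klf6 were 0.89, 0.88 and 0.86. The genes listed for Klf4 then stood at ranks 9, 7 and 15, and for Egr1 Furin stood at rank 14 and Mfge8 at rank 12. Nr4a3 stood at rank 2 for Egr1 and at rank 8 for Egr2, and Lox stayed at rank 1 for Klf10.

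Genes of the wider pathway were compared in the same fit, as the SHR minus WKY difference over both vessel types. The gene lists were chosen with earlier results of these data known, so their counts are a description and no independent support. Among 26 other immediate early genes, 24 were below 0, with a median of -0.89 against 0.07 for all tested probe sets. Over all tested probe sets 0.507% passed as lower in SHR, and of the 26 genes 5 passed, all lower in SHR. These were the nuclear receptor gene Nr4a3 at -3.72 ± 0.57 (adjusted p = 0.00484), Dusp1 at -1.75 ± 0.28 (adjusted p = 0.00484), the dominant negative helix-loop-helix gene Id1 at -1.32 ± 0.23 (adjusted p = 0.00643), the interferon response factor gene Irf1 at -1.66 ± 0.29 (adjusted p = 0.00643) and Arc at -1.09 ± 0.24 (adjusted p = 0.0367). Nr4a3 ranged from 257 to 2115 in SHR collateral, 423 to 12314 in SHR control, 6860 to 15340 in WKY collateral and 16182 to 24591 in WKY control arteries. Dusp1 ranged from 1249 to 3724 in SHR collateral, 1130 to 4475 in SHR control, 5619 to 6524 in WKY collateral and 8026 to 13978 in WKY control arteries, with no overlap between strains. All 5 lost their call with the 3' to 5' ratio as a covariate, with adjusted p of 0.0632 to 0.338, while their differences stayed between -3.64 and -1.08. Nr4a3, Dusp1, Id1 and Irf1 passed in the other 23 of 24 alternatives, and Arc passed in 9. The Arc call was also lost under quantile normalization, without the variance trend, with the replicate block, without SHR control 1 or 3, SHR collateral 1 or 4, and without any 1 of the 7 WKY arrays.

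The genes that act upstream did not pass. Of 10 measured inducers of EGR and KLF genes, among them the kinase genes Mapk14 and Map2k1 and the factor gene Mef2d, 0 passed by limma, 0 had an unadjusted p under 0.05, and their median was 0.02, or -0.08 without SHR collateral 3. Mapk14 stood at -0.27 ± 0.18, Map2k1 at -0.59 ± 0.43 and Mef2d at 0.48 ± 0.25, and Map2k1 was at -0.12 without SHR collateral 3. Of the other EGR factors and cofactors, Egr3 stood at 0.24 ± 0.71, Egr4 at 0.34 ± 0.28 and the EGR repressor gene Nab1 at 0.72 ± 0.45, none of which passed. Egr3 was at -0.23 and Egr4 at 0.13 without SHR collateral 3. Egr3 was dim, at 19.1 to 983.4 in SHR collateral arteries. Of 21 other Krüppel-like and SP factors, 3 were on the array and none passed the filter.

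Among reported targets, 1 of 15 EGR1 target genes passed, Icam1, an adhesion molecule of activated endothelium, at -1.33 ± 0.31 (adjusted p = 0.0431, 0.0164 to 0.13 over 24 alternatives). The call of Icam1 held in 7 of the 24. It was lost with the 3' to 5' ratio as a covariate (adjusted p = 0.109), with the replicate block, under quantile normalization, with equal array medians, without a filter and without the variance trend, and leaving out SHR control 2, 3 or 4 ended it, as did SHR collateral 1, 2 or 4, WKY control 1 or 3, or WKY collateral 1, 2 or 3. The median of the 15 was 0.29, with 8 above 0 and 7 below, and it was 0.12 without SHR collateral 3. The growth factor gene Igf2 was at -0.90 ± 0.32 and the VEGF receptor gene Flt1 at 1.12 ± 0.41, neither of which passed. Among 16 reported KLF4 and KLF6 targets 1 passed, Vcam1, another endothelial adhesion molecule, at -2.40 ± 0.46 (adjusted p = 0.0121, 0.00548 to 0.0632 over 24 alternatives). Vcam1 ranged from 1124 to 6754 in SHR collateral, 1868 to 7938 in SHR control, 3624 to 29646 in WKY collateral and 12962 to 34710 in WKY control arteries, so the collateral groups overlapped. Its call was lost with the 3' to 5' ratio as a covariate, without the variance trend and without WKY control 1. The median of the 16 was -0.19, with 5 above 0 and 11 below. The target lists do not mark whether a factor raises or lowers a gene, so these signs do not tell whether targets followed their factors. Acvrl1, a TGF-beta family receptor gene, was at -0.67 ± 0.19 and Myh11 at -0.97 ± 0.40 without passing. Of 9 glucocorticoid and clock output genes measured beside Klf9, 0 passed by limma and 4 had an unadjusted p under 0.05. Sgk1 was at -0.92 ± 0.29, Nfkbia at -0.95 ± 0.34 and Bhlhe40 at -0.72 ± 0.24, while Dbp lay the other way at 1.55. The median of the 9 was -0.22, with 4 above 0 and 5 below, and it was 0.09 without SHR collateral 3.

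**Figure D5:**
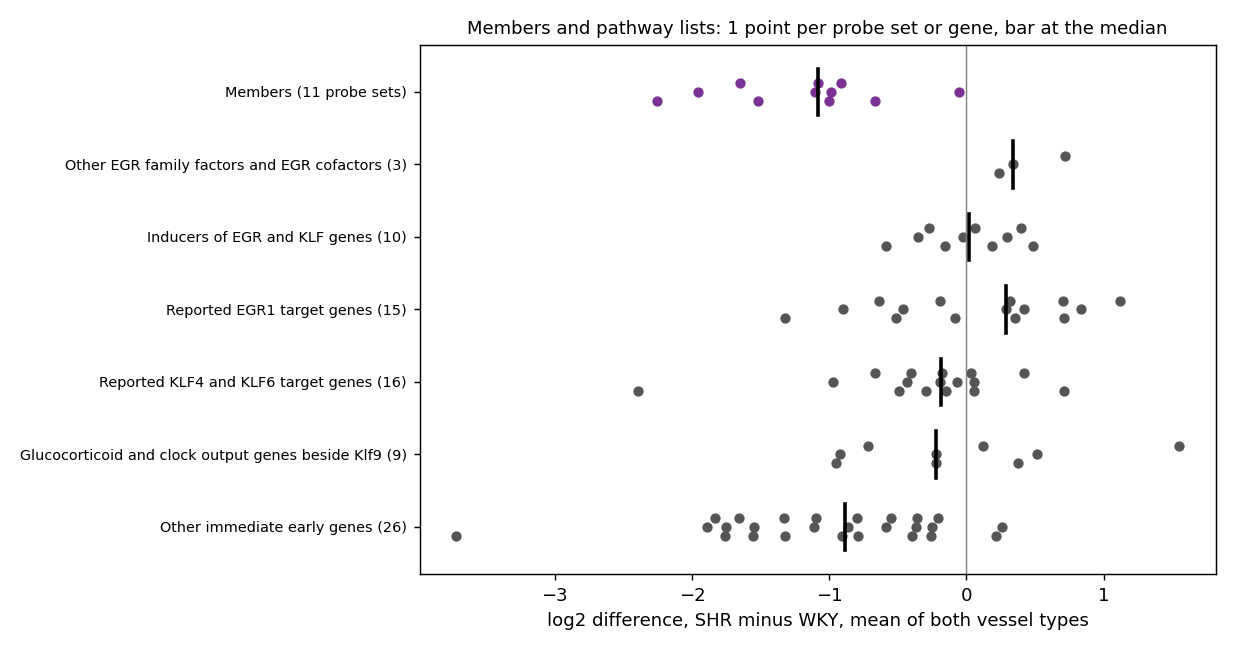
Log2 difference, SHR minus WKY over both vessel types (horizontal axis), for the 11 member probe sets and for the measured genes of each pathway list, with 1 point per probe set or gene and a bar at the median. The medians are -1.08 for the members, which were selected on these signals, -0.89 for the other immediate early genes and 0.02 for the inducers. The lists were chosen with earlier results of these data known.

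Markers of cell types in the artery wall moved with strain as well. All 5 macrophage markers and all 4 mast cell markers were above 0, SHR minus WKY, and Cd74 at 3.52 ± 0.61 (adjusted p = 0.00643), C1qb at 2.21 ± 0.47 (adjusted p = 0.0269) and the mast cell chymase gene Cma1 at 1.19 ± 0.27 (adjusted p = 0.0376) passed in limma. With the 3' to 5' ratio as a covariate all 3 lost their call. Of the 24 alternatives, Cd74 passed in 23, C1qb in 12 and Cma1 in 10, and the calls of the last 2 ended without SHR control 1 or 3, SHR collateral 1, WKY control 1 or 3, or WKY collateral 2, 3 or 4, and Cma1 also without WKY control 2 or WKY collateral 1. The summed macrophage signal was 16678 to 29657 in SHR collateral, 5334 to 44472 in SHR control, 4691 to 19011 in WKY collateral and 3106 to 5838 in WKY control arteries. The mast cell sum was 3663 to 7540 in SHR collateral, 4104 to 6757 in SHR control, 2220 to 3723 in WKY collateral and 2718 to 3981 in WKY control arteries. The 6 nerve markers, none of which passed, summed to 2689 to 5418 in SHR collateral, 2650 to 5013 in SHR control, 1621 to 2620 in WKY collateral and 1946 to 2584 in WKY control arteries, with no overlap between strains. All 6 nerve markers were above 0, SHR minus WKY, and 2 had an unadjusted p under 0.05. Of 8 endothelial markers, 4 were above and 4 below 0, and 5 had an unadjusted p under 0.05. Among them Icam2 passed in limma at -2.79 ± 0.42 (adjusted p = 0.00454), although not with the covariate. The endothelial sum was 2238 to 5959 in SHR collateral, 2442 to 3856 in SHR control, 2947 to 9084 in WKY collateral and 5038 to 7367 in WKY control arteries. Smooth muscle markers summed to 81678 to 337054 in SHR collateral, 149407 to 311625 in SHR control, 224891 to 324421 in WKY collateral and 230834 to 332621 in WKY control arteries, and 0 of 9 passed. Of the 9, 8 were below 0, SHR minus WKY, with a median of -0.48, or -0.25 without SHR collateral 3, and 4 had an unadjusted p under 0.05. No smooth muscle marker had a value at 0. None of the 9 fibroblast, 6 adipocyte, 4 lymphocyte and 2 red cell markers passed in limma, although 3 fibroblast markers and 1 lymphocyte marker had an unadjusted p under 0.05. Of the 6 adipocyte markers, 5 were above 0 and 1 below, SHR minus WKY, with a median of 0.87, or 0.83 without SHR collateral 3. The fibroblast median was 0.24, with 6 above 0 and 3 below, and the lymphocyte median was 0.38, with 3 above and 1 below. The part of these cell types in the Klf and Egr differences was not tested.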

How the data were processed

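RNA from each artery sample was labelled with biotin as cRNA, with 1 sample on each of 15 rat arrays, per the labels' protocols. The authors made the deposited signal values in GCOS by MAS5, per the submitters' processing notes, with versions not given in the sources used. The mean after trimming 2% was 1001.1 to 1001.7 on every array, so the signals had been scaled, which makes arrays comparable only where total RNA is alike. Values under 1 (12 in number) were raised to 1 before log2. The 59 array controls were left out, and testing required a signal at the array's 40th percentile or above on 3 or more arrays. Names came from the platform annotation, in which 7006 probe sets had 1 symbol, 308 several and 1426 none. Probe sets with several or none were left unnamed.

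Group means were fitted to all 15 arrays by limma 3.58.1 (R 4.3.3) and a variance trend (11 residual and 7.19 prior degrees of freedom), two-sided tests and Benjamini-Hochberg adjustment over 6512 probe sets. The fit was tested on simulated data. Members and gene lists were chosen with earlier results of these data known. From each list, up to 3 genes with the smallest p in the strain difference over both vessel types, and any gene that passed, were named, each by its probe set with the highest mean log2 signal. Likeness used each member's probe set with the highest mean log2 signal. Promoters are RefSeq's for GRCr8. Alternatives were quantile normalization, equal array medians, an added constant of 68.5, a 60th percentile filter or none, array weights, no variance trend, the 3' to 5' ratio as a covariate, only the groups compared, a replicate block and each array left out. For arrays, their number limits the precision.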

Additional observations from a re-analysis of the deposited data

Results flagged for a closer look

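In WKY collateral arteries the Egr1 probe set M18416_at had a log2 signal of 14.16 on WKY collateral 1, while the other 3 arrays of the group lay close together, so this array was far from the rest of its group. Of 33 groups of 4 arrays examined, 1 held such an array, and chance gives about 1 in 20. In collateral arteries the SHR minus WKY difference of the probe set was -1.75 without this array and -2.01 with it.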

How the results depend on the processing

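Over both vessel types, the SHR minus WKY difference lay between -2.93 and -2.01 for Klf6 over 24 alternatives, between -2.02 and -1.51 for Egr2, between -2.22 and -1.78 for Egr1 (M18416_at) and between -1.13 and -0.51 for Klf9 (D12769_at). Counts of members called are a description, since the members were selected on these signals. The members called numbered 2 without the variance trend and 1 with the covariate, against 4, and all calls numbered 31 with equal medians, 34 without the trend, 184 with array weights and 3 with the covariate, against 58. With single arrays left out all calls ranged from 30 (without SHR control 3) to 101 (without SHR control 4), and were also over 1.5 times fewer without SHR control 1, SHR collateral 1, WKY control 1, 2 or 3, or WKY collateral 2. In control arteries all calls, 2 in number, became 0 without a filter, with the 60th percentile filter or with the covariate, 1 without the trend, 14 with array weights and 7 with only the groups compared, when 2 members passed, and ranged from 0 to 6 with arrays left out. In collateral arteries they were 26 with array weights, 3 of them members, 2 with only the groups compared, and 0 to 7 with arrays left out, with 0 to 1 members (Egr1 M18416_at, without SHR collateral 2). The replicate numbers were not taken to pair the arrays, since the labels tie no number to an animal or batch and same-numbered deviations correlated between -0.07 and 0.31, although 5 of 7 matched best with their own number, a hint from the data. With the replicate block, 49 probe sets and 4 members passed over both vessel types. Of the member differences, 7 of 275 SHR minus WKY values changed sign in collateral arteries, 1 of 275 in control arteries and 4 of 264 over both, as did 11 of 286 collateral minus control values in SHR, 1 of 286 in WKY and 28 of 275 in the difference between strains in the collateral change; the cause was not tested. The number of arrays and the spread between them limit what can be seen.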
